A study of Homo sapiens with 9 samples.

Results

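The 10 genes *KLK5*, *KLK6*, *KLK7*, *KLK8*, *KLK9*, *KLK10*, *KLK11*, *KLK12*, *KLK13* and *KLK14* of the kallikrein cluster on chromosome 19q13 were followed in OVCAR3 cells. They were taken by name from the 60660 genes of the count table, and all 10 were found there. OVCAR3 is an established cell line from a human ovarian carcinoma that expresses *CTCFL* (also called BORIS), a germline paralog of the chromatin protein CTCF, and the study asked which genes respond to the level of *CTCFL*. RNA-seq libraries were available from 3 groups of 3 biological replicates, each pooled from 3 technical replicates. Control cells carried a LacZ plasmid and CTCFL-OE cells a plasmid with the open reading frame of *CTCFL*, both by transient transfection with 2 µg of DNA and harvest after 48 h. CTCFL-KD cells had *CTCFL* lowered with siRNA in an earlier, separately published experiment, and no Control library of that experiment was analysed here. The knockdown and the handling of the cells in that experiment therefore cannot be told apart in any comparison with CTCFL-KD. Cells of all groups were OVCAR3 in RPMI-1640 with serum and insulin.

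Kallikrein-related peptidases are secreted serine proteases that are made as inactive proenzymes and become active when a short propeptide is cut off. Several of them cut each other, so that they work as a cascade, in which *KLK5* is an early activator that can process itself and others. The cascade is best known from shedding of the outer skin, and ovarian carcinomas are known to release several members, *KLK6* among them.

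In GRCh38 the 10 genes lie in a row on the minus strand of chromosome 19, from *KLK5* at 50943303 to 50953093 up to *KLK14* at 51077495 to 51084245, a stretch of 141 kb. RefSeq promoters (GRCh38.p14) were at hand for 9 of the 10 members, in 16 windows of the 250 bases before a transcription start, and those of *KLK8* were not among them. A set of 4 short motifs was searched on both strands of these windows. The GC box (GGGCGG), a site of Sp1-type factors, was present in 10 of the 16 windows, compared with 42.6% of 35116 promoter windows of all genes. The letters AGNGGGC, a stretch of the CTCF motif, occurred in 3 windows, of *KLK10* and *KLK13*, compared with 27.2% of all promoters. Windows of the same gene can overlap, so these counts hold some sites more than once, such as the 1 AGNGGGC that both windows of *KLK10* share. By gene, 6 of the 9 members had a GC box in some window and 2 had AGNGGGC. Neither TATAAA, the TATA box, nor TGANTCA, the AP-1 site, occurred in any of the 16 windows, and these were present in 10.7% and 6.57% of all promoters. GC box and AGNGGGC matches did not overlap each other, while neighbouring GC boxes of *KLK13* did. Several windows overlap exons of longer annotated transcripts, and 5 members are printed from base -250 up to the first such exon, with whole motif matches in capitals. Of these, *KLK5*, *KLK7*, *KLK11* and *KLK13* rose in CTCFL-KD, as did *KLK8*, which had no promoter at hand. *KLK6* is the most abundant member that did not rise.
KLK5, chr19:50953094-50953288, minus strand: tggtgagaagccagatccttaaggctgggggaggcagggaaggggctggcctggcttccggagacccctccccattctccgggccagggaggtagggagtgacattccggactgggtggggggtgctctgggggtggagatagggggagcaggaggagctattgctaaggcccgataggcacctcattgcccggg
KLK7, chr19:50984100-50984314, minus strand: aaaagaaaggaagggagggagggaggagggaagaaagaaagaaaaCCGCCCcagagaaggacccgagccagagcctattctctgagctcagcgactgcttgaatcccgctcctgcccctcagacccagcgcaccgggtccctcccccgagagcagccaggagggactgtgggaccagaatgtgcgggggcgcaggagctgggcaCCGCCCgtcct
KLK11, chr19:51027704-51027896, minus strand: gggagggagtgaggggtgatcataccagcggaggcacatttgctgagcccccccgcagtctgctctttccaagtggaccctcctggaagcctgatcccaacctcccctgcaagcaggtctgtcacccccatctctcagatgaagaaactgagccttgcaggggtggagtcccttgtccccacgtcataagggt
KLK13, chr19:51065115-51065342, minus strand: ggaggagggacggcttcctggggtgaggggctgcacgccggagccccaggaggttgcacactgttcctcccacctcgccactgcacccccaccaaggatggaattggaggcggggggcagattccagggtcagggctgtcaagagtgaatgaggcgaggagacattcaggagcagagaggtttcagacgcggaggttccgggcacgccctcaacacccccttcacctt
KLK6, chr19:50969674-50969841, minus strand: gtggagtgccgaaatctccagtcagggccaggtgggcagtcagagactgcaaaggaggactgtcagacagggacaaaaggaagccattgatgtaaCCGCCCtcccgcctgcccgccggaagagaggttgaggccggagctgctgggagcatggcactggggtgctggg

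In these stretches, *KLK7* holds 2 GC boxes, *KLK6* holds 1, and *KLK5*, *KLK11* and *KLK13* hold none of the 4 motifs. A match or its absence describes these letters only. The lone windows of *KLK5* and *KLK12* have none of the 4 motifs over their whole length either, whereas *KLK6* and *KLK13* each have 2 more GC boxes nearer to the start, and a second start of *KLK11* has 3 in its window.

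Total counts per library ranged from 14332622 to 24490080, and the limit that a count of 0 allows, 3 counts, came to between 0.117 and 0.271 CPM, which are counts divided by the library size after TMM scaling. Counts of *CTCFL* itself were 6, 9 and 10 for Control, 36, 34 and 72 for CTCFL-OE and 0, 1 and 0 for CTCFL-KD. Mitochondrial genes took 6.16% to 6.52% of the counts in Control, 7.40% to 14.9% in CTCFL-OE and 7.80% to 11.8% in CTCFL-KD. Replicate 1 of CTCFL-KD stood apart, with a TMM factor of 0.775. Over 9868 genes, each library's level relative to the other libraries of its group was correlated with transcript length. The Spearman correlation was -0.638 for replicate 1 of CTCFL-KD. Replicates 2 and 3 had 0.628 and 0.597, against a reference that included replicate 1. For replicate 1 of Control it was -0.4. The Control libraries resembled each other more closely, by the SD of their CPM, than those of either other group did for *KLK5*, *KLK6*, *KLK7*, *KLK10*, *KLK11* and *KLK14*. In bulk RNA, fewer cells that express a gene and less RNA per cell cannot be told apart.

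Among the members, *KLK6*, *KLK5* and *KLK10* carried most of the reads. On the scale of RPKM, the CPM divided by the exon length in kb, which allows genes to be compared, the Control level was 38.5 ± 0.784 for *KLK6*, 15.1 ± 0.288 for *KLK5* and 7.94 ± 0.283 for *KLK10* (SD, n = 3). Below these came *KLK8* at 3.11 ± 0.273, *KLK7* at 1.62 ± 0.248, *KLK14* at 0.449 ± 0.0247, *KLK13* at 0.156 ± 0.0389 and *KLK11* at 0.118 ± 0.0241 RPKM (SD, n = 3). Neighbours in this order did not overlap in the 3 Control libraries except *KLK13* and *KLK11*. *KLK12* had a single count in all 9 libraries, in replicate 1 of CTCFL-OE, and *KLK9* had none, so neither was tested. The count of *KLK9* is uncertain, since 91.3% of the 75-base words of its transcripts also occur in an annotated read-through transcript of *KLK8* and *KLK9*, a gene that had 0 counts in each library. *KLK8* shared 31.4% of its words with the same transcript and 130 of 2145 with *KLK9*, and no other member shared a word with another kallikrein gene. How reads on overlapping genes were counted, and on which strand, is not given in the sources used here, and an antisense long noncoding RNA (ENSG00000267879), with 6 to 24 counts per library, spans the region of *KLK7* and *KLK8*.

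**Figure D1:**
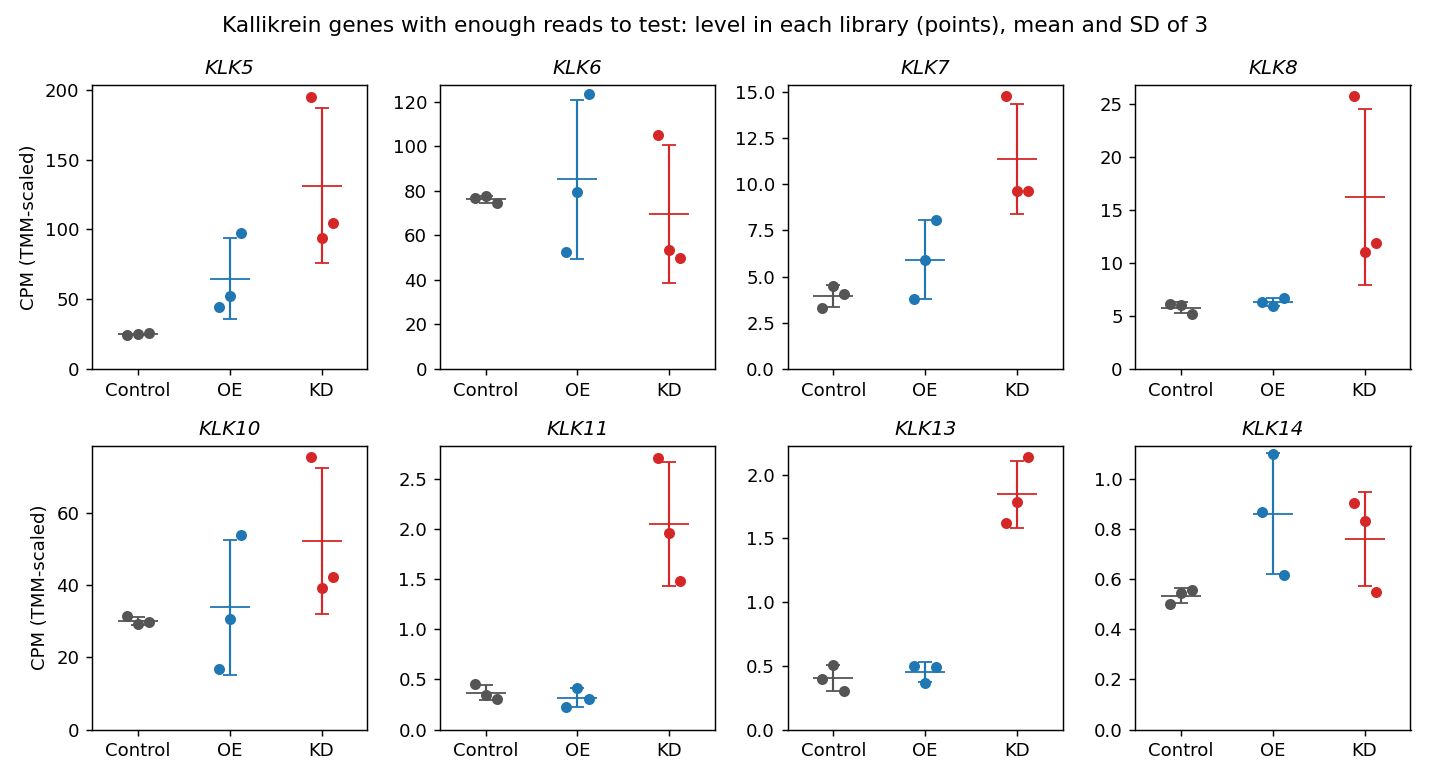
Level of the 8 members that could be tested, in CPM (vertical axis, linear, from 0), in each library of Control, CTCFL-OE (OE) and CTCFL-KD (KD). Points are libraries, horizontal marks are means and bars are SDs of 3. *KLK5*, *KLK7*, *KLK8*, *KLK11* and *KLK13* lie above Control in all 3 CTCFL-KD libraries, while *KLK6* falls on both sides.

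In CTCFL-OE compared with Control, *KLK5* was the 1 member of the 8 tested that rose, by 2.59-fold, and no member fell. Of all 17794 genes tested, 1.37% rose and 0.702% fell by the same rule, a log2 fold change beyond 1 with an adjusted p under 0.1. The median log2 fold change was 0.16 for the 8 members and -0.01 for all genes tested. *KLK11* and *KLK13* entered the test through their CTCFL-KD counts alone and were not testable when only Control and CTCFL-OE were fitted.

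*KLK5*, the trypsin-like early activator of the cascade, had 24.5, 24.7 and 25.4 CPM in Control and 44.1, 51.9 and 97.7 CPM in CTCFL-OE. Every CTCFL-OE library lay above every Control library, and replicate 3 was far above the other two. The log2 fold change was 1.37 ± 0.34 (SE), and edgeR's quasi-likelihood test gave a Benjamini-Hochberg (BH) adjusted p of 0.0797. The call rested on few libraries. Without replicate 3 of CTCFL-OE the log2 fold change was 0.94, and without that library, without replicate 2 of CTCFL-OE or without any one Control library, the BH-adjusted p of the same edgeR test lay between 0.207 and 0.311.

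The other trypsin-like member with a high level, *KLK6*, had 76.5, 77.5 and 74.5 CPM in Control and 52.5, 79.5 and 123 CPM in CTCFL-OE. Its CTCFL-OE libraries fell on both sides of Control, and the log2 fold change was 0.16 with a 95% interval from -0.58 to 0.89. *KLK10*, a member best known for its loss in breast tumours, had 31.4, 29.3 and 29.8 CPM in Control and 16.8, 30.7 and 53.9 CPM in CTCFL-OE, which gave 0.16 on the log2 scale (interval -0.66 to 0.98). For both genes replicate 1 was the lowest CTCFL-OE library and replicate 3 the highest. The chymotrypsin-like *KLK7*, which cuts proteins that hold skin cells together, had 3.31, 4.51 and 4.05 CPM in Control and 3.79, 5.91 and 8.05 CPM in CTCFL-OE. Its groups overlapped, and its log2 fold change of 0.57 (interval -0.08 to 1.22) did not pass the test, with a BH-adjusted p of 0.337 in edgeR.

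*KLK14*, a trypsin-like activator of other members, had 0.501, 0.544 and 0.557 CPM in Control and 0.867, 1.10 and 0.615 CPM in CTCFL-OE. Its groups did not overlap, but these values rest on 10 to 21 counts per library, and the log2 fold change of 0.69 ± 0.33 (SE) had a BH-adjusted p of 0.308 in edgeR. With *KLK5*, 2 of 8 members were higher in every CTCFL-OE library than in any Control library, against 16.3% of all genes. *KLK8*, also known as neuropsin for its role in the hippocampus, was nearly level, with a log2 fold change of 0.12 (interval -0.54 to 0.79). The low members *KLK11* and *KLK13* had log2 fold changes of -0.22 and 0.15, on counts of 5 to 13 per library.

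In CTCFL-KD compared with Control, 5 of the 8 members tested rose, between 2.78-fold and 5.40-fold, and none fell. By the rule for this comparison, with an adjusted p under 0.05, 15.3% of all genes tested rose and 7.94% fell. The median log2 fold change was 1.49 for the 8 members and 0.08 for all genes tested. Of the 6 members with at least 10 counts in each library, 3 rose, namely *KLK5*, *KLK7* and *KLK8*. *KLK10* was higher in each CTCFL-KD library too, which made 6 of 8 members without overlap above Control, against 28.7% of all genes.

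*KLK5* had 195, 94.0 and 105 CPM in CTCFL-KD, against 24.5 to 25.4 CPM in Control. All 3 libraries were more than 3 times the highest Control library, and replicate 1 stood highest. The log2 fold change was 2.40 ± 0.35 (SE), 5.27-fold, with a BH-adjusted p of 0.00045 in edgeR. Without replicate 1 of CTCFL-KD the log2 fold change was 2.00, and with offsets for transcript length and GC content it was 1.99.

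*KLK7*, which *KLK5* can activate, had 14.8, 9.63 and 9.64 CPM in CTCFL-KD and at most 4.51 CPM in Control. Its log2 fold change was 1.51 ± 0.29 (SE), with a BH-adjusted p of 0.00257 in edgeR. *KLK8* had 6.16, 6.02 and 5.22 CPM in Control and 25.8, 11.1 and 11.9 CPM in CTCFL-KD, again with no overlap and with replicate 1 highest. The log2 fold change of *KLK8* was 1.47 ± 0.30 (SE), with a BH-adjusted p of 0.00334 in edgeR. Leaving out replicate 1 of CTCFL-KD gave 0.99, just under the threshold of 1, and with the length and GC offsets it was 1.06.

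The members with the lowest levels showed 2 of the 3 largest fold changes. *KLK11*, a trypsin-like protease found in brain and prostate, had 9, 9 and 6 counts in Control and 30, 33 and 27 counts in CTCFL-KD, or 0.451, 0.350 and 0.304 CPM against 2.71, 1.96 and 1.48 CPM. *KLK13*, another trypsin-like member, had 8, 13 and 6 counts in Control and 18, 30 and 39 counts in CTCFL-KD, or 0.401, 0.505 and 0.304 CPM against 1.62, 1.78 and 2.14 CPM. Neither gene's groups overlapped, and for *KLK13* replicate 1 was the lowest CTCFL-KD library. Log2 fold changes of 2.43 ± 0.35 and 2.17 ± 0.31 (SE) were fitted, and edgeR gave BH-adjusted p of 0.000428 and 0.00037. Both calls came with counts so low in Control that the genes were tested only because CTCFL-KD was high, so a place among the calls was favoured by the filter.

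*KLK10* had 75.5, 39.1 and 42.1 CPM in CTCFL-KD, above its 29.3 to 31.4 CPM in Control. The log2 fold change of 0.79 (interval -0.03 to 1.61) did not pass, with a BH-adjusted p of 0.117 in edgeR. *KLK6*, the most abundant member in Control, had 105, 53.5 and 49.8 CPM in CTCFL-KD. Replicate 1 lay above Control and replicates 2 and 3 below it, and the log2 fold change was -0.14 with an interval from -0.87 to 0.60. *KLK14* had 0.902, 0.832 and 0.548 CPM, which overlapped Control, and a log2 fold change of 0.48 (interval -0.30 to 1.25). Replicate 1 of CTCFL-KD was the highest library of its group for each of the 8 members except *KLK13*.

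**Figure D2:**
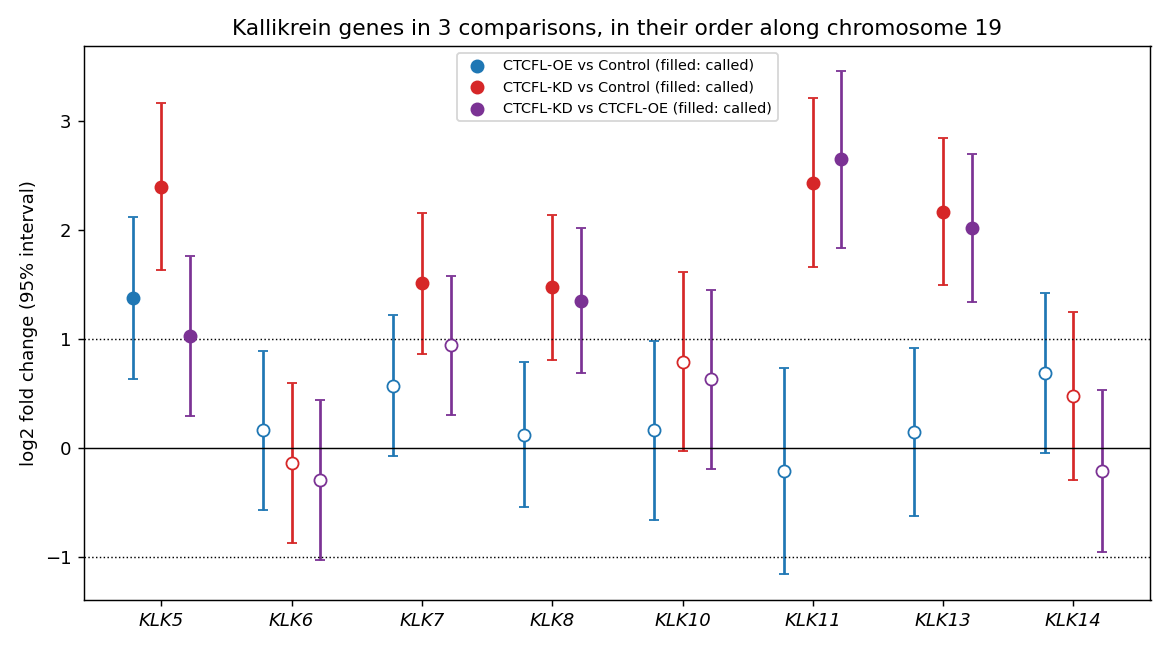
Log2 fold change (vertical axis) of the 8 members tested in each of the 3 comparisons, in their order along chromosome 19, with 95% intervals as bars. Filled points passed the test and dotted lines mark log2 fold changes of -1 and 1. In CTCFL-KD the filled points lie between 1.47 and 2.43, and in CTCFL-OE *KLK5* at 1.37 is filled.

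Both comparisons above used the same Control libraries, so the groups were also compared directly. In CTCFL-KD compared with CTCFL-OE, 4 of the 8 members tested were called higher and none lower, while 10.6% of all genes tested were called higher and 6.42% lower. *KLK11*, *KLK13* and *KLK8* were higher by log2 fold changes of 2.65, 2.02 and 1.35, with BH-adjusted p of 0.000473, 0.00082 and 0.0076 in edgeR, and no CTCFL-KD library overlapped CTCFL-OE for these genes. *KLK11* and *KLK13* were testable only through their CTCFL-KD counts, so the filter favoured these calls as well, and with at least 10 counts in every library 1 member, *KLK8*, was called. Without replicate 1 of CTCFL-KD the log2 fold change of *KLK8* was 0.86, under the fold threshold, and 2 members were called. With *KLK7*, 4 of 8 members were without overlap above CTCFL-OE, against 20.3% of all genes. For *KLK5* the groups overlapped, since replicate 3 of CTCFL-OE at 97.7 CPM was above replicate 2 of CTCFL-KD at 94.0 CPM. Its log2 fold change of 1.02 (interval 0.29 to 1.76) just passed, with a BH-adjusted p of 0.0426 in edgeR, and 14 of the 19 other settings lost this call. *KLK7* was higher in each CTCFL-KD library, with a log2 fold change of 0.94 and a BH-adjusted p of 0.0337 in edgeR, under the fold threshold. *KLK6*, *KLK10* and *KLK14* had log2 fold changes of -0.30, 0.63 and -0.21 and intervals that included 0.

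The order of the members by RPKM differed between the groups. In Control, *KLK6* lay above *KLK5* in each library. In CTCFL-OE the mean levels were 43.1 ± 18.1 RPKM for *KLK6* and 39.0 ± 17.5 RPKM for *KLK5* (SD, n = 3), with overlapping libraries. In CTCFL-KD *KLK5* led at 79.4 ± 33.5 RPKM, above *KLK6* at 35.1 ± 15.6 RPKM (SD, n = 3), with no overlap. *KLK10*, *KLK8* and *KLK7* followed in each group, and *KLK8* and *KLK7* overlapped in CTCFL-OE, as did *KLK10* with *KLK8* and *KLK8* with *KLK7* in CTCFL-KD. At the bottom of the order in CTCFL-KD, *KLK13* at 0.714 ± 0.101, *KLK11* at 0.658 ± 0.199 and *KLK14* at 0.639 ± 0.158 RPKM (SD, n = 3) overlapped one another.

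A ratio of 2 genes within one library does not depend on how libraries are scaled. The *KLK5* to *KLK6* ratio of RPKM was 0.383, 0.381 and 0.408 for Control. It was 1.002, 0.781 and 0.947 for CTCFL-OE, and 2.22, 2.10 and 2.52 for CTCFL-KD. The 3 groups did not overlap in this ratio, although the levels of both genes varied widely within CTCFL-OE and within CTCFL-KD. This ratio was chosen after the values were seen and is given without a test. As a share of the summed RPKM of the 10 members, *KLK5* took 22.1% to 23.3% in Control, 36.3% to 41.9% in CTCFL-OE and 53.6% to 56.7% in CTCFL-KD. *KLK6* took 57.1% to 57.9%, 41.8% to 46.5% and 22.5% to 25.5%. The summed CPM of the members was 140 to 143 in Control, 125 to 291 in CTCFL-OE and 212 to 421 in CTCFL-KD.

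**Figure D3:**
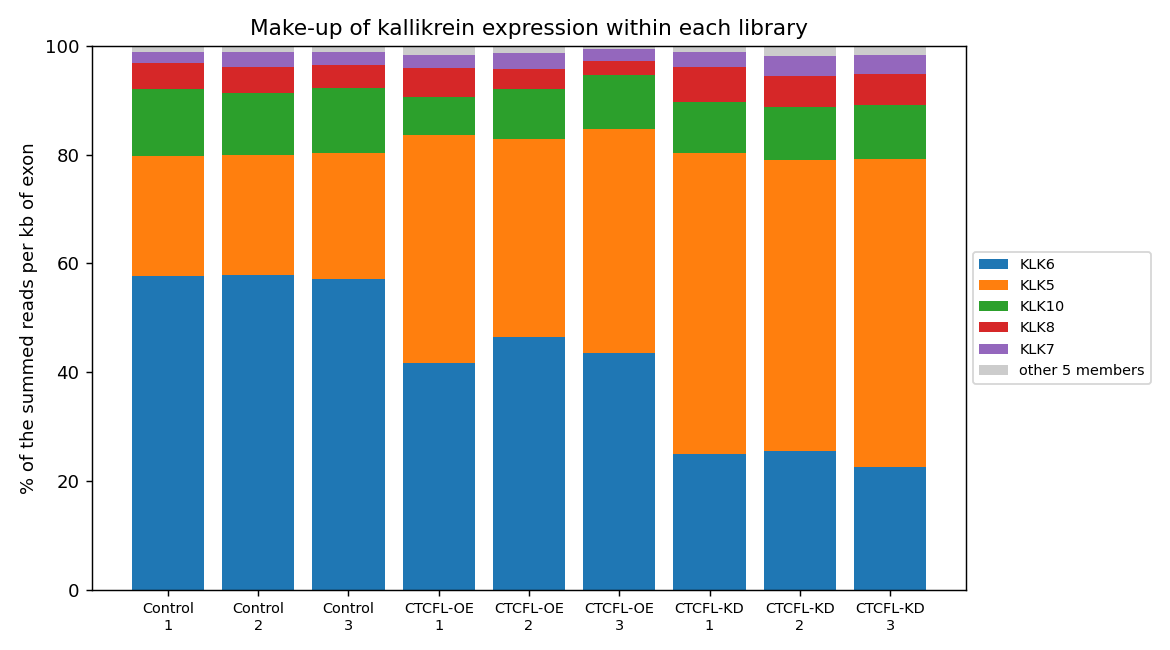
Share of each member in the summed RPKM of the 10 kallikrein genes (vertical axis, percent) in each of the 9 libraries, stacked. *KLK6* (blue) takes 57.1% to 57.9% in Control and 22.5% to 25.5% in CTCFL-KD, and *KLK5* (orange) 22.1% to 23.3% and 53.6% to 56.7%.

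Of the other 6 kallikrein genes of the cluster (*KLK1*, *KLK2*, *KLK3*, *KLK4*, *KLK15* and *KLKP1*), *KLK1*, the tissue kallikrein that releases kinins, had enough reads to test. It had 0.29 on the log2 scale in CTCFL-OE and -0.73 in CTCFL-KD, and neither value passed. Between CTCFL-KD and CTCFL-OE it had -1.02, with an unadjusted p of 0.0168 and a BH-adjusted p of 0.0579 in edgeR. Its CTCFL-KD libraries lay below all libraries of both other groups. Of 44 other annotated genes within 250 kb of the cluster, 22 had any count and 4 were tested (*CLEC11A*, *ACP4*, *C19orf48P* and *CTU1*), and edgeR's quasi-likelihood test called none of them in any of the 3 comparisons. Of these, *CTU1*, an enzyme of tRNA modification, had an unadjusted p under 0.05 in CTCFL-KD, with a log2 fold change of 0.88. DESeq2, with a less strict filter, called 1 neighbour in each comparison with CTCFL-KD and 0 in CTCFL-OE. In CTCFL-OE, 0 of the 4 neighbours had an unadjusted p under 0.05.

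Among 10 protease inhibitors, 5 were tested and 2 rose in CTCFL-KD, where 15.3% of all genes tested rose. Both are membrane-bound Kunitz-type inhibitors of trypsin-like serine proteases. *SPINT2* had 404, 378 and 391 CPM in Control and 2407, 1644 and 1747 CPM in CTCFL-KD, with a log2 fold change of 2.31 and a BH-adjusted p of 0.000191 in edgeR. *SPINT1* had 181, 178 and 187 CPM in Control and 701, 383 and 413 CPM in CTCFL-KD, with a log2 fold change of 1.45 and a BH-adjusted p of 0.00382 in edgeR. Neither inhibitor's CTCFL-KD libraries overlapped Control, and no inhibitor passed in CTCFL-OE, where 0 of the 5 had an unadjusted p under 0.05 and DESeq2 called 0. *SPINK5*, the skin inhibitor of *KLK5* and *KLK7*, had 0 to 5 counts per library and was not tested.

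Of 12 substrates and receptors of kallikreins, 9 were tested. In CTCFL-KD, 2 rose and 3 fell, against 15.3% and 7.94% of all genes tested. *CAMP*, the cathelicidin precursor that *KLK5* and *KLK7* process in skin, had 1 count in each Control library and 33, 19 and 24 counts in CTCFL-KD, at least 12.9-fold higher against 3 counts per Control library, and it too was tested only because CTCFL-KD was high. *APP*, the amyloid precursor, rose by a log2 fold change of 1.25, and *FLG*, the barrier protein filaggrin, fell by 2.05 on the log2 scale. The other genes that fell were *FN1*, fibronectin of the extracellular matrix, at -1.90, and *L1CAM*, a cell adhesion protein, at -1.46. *FN1* was also the 1 gene of this list called in CTCFL-OE, where it fell by 1.60 on the log2 scale. Its BH-adjusted p in edgeR was 0.0795, and the call was lost without any one Control library, without replicate 2 or 3 of CTCFL-OE and without replicate 2 of CTCFL-KD.

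Of 10 nuclear receptors that are known regulators of kallikrein genes in other tissues, 8 were tested, and none was called in CTCFL-OE by edgeR or DESeq2. In CTCFL-KD, *VDR*, the vitamin D receptor and the 1 gene of this list with an unadjusted p under 0.05 in CTCFL-OE (log2 fold change -0.65, under the fold threshold), had 20.8, 22.5 and 22.1 CPM against 65.1, 65.3 and 67.3 CPM in Control, a log2 fold change of -1.59. *RARB*, a retinoic acid receptor, had a log2 fold change of 2.19 on 4 to 6 counts per Control library. These Control counts alone would not have passed the filter, so the filter favoured this call. The groups did not overlap for *VDR*, which fell, while *RARB* rose.

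Marker genes of cell types moved with the groups. Over 9 ovarian carcinoma epithelial markers, summed CPM was 5860 to 5947 in Control, 4788 to 5431 in CTCFL-OE and 9576 to 16929 in CTCFL-KD. In CTCFL-KD 5 of the 9 rose and 1 fell, against 15.3% and 7.94% of all genes tested. Among them *MUC16*, the CA125 antigen, rose by a log2 fold change of 2.84. The summed CPM of 6 squamous keratinocyte markers was 40.5 to 42.9, 32.4 to 38.1 and 18.3 to 32.4, with *KRT5* and *TP63* lower in CTCFL-KD, *TP63* also lower in CTCFL-OE (log2 fold change -1.78), and *KRT1* and *DSG3* at 0 counts in each library. Markers of fibroblasts (26.8 to 32.8, 23.9 to 43.6 and 22.6 to 27.5 CPM) overlapped between groups, and *DCN* and *COL3A1* had 0 counts in each Control library and at most 9 in any other. Those of leukocytes came to 0.551 to 0.855, 0.730 to 1.66 and 2.56 to 4.51 CPM, with *PTPRC*, the common leukocyte antigen, at 0 to 8 counts and *CD3E* at 0 to 1, and those of endothelium to 6.79 to 7.06, 8.23 to 10.3 and 4.49 to 5.29 CPM. Markers called in CTCFL-KD included *CD14* of the leukocyte list, with a log2 fold change of 3.84. *CD14* had 0.0777 to 0.200 CPM in Control, about the limit of 3 counts, and was tested only because CTCFL-KD was high. *PECAM1* of the endothelial list was called too and fell by 2.56 on the log2 scale, while *VWF* was at -0.11. The part of these markers in the kallikrein results was not tested.

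By the smallest root mean square difference of row-centred log2 CPM over the 9 libraries, the genes whose pattern was most like that of *KLK6*, the member with the highest mean CPM, were *APOL1* (0.125), ENSG00000285646 (0.132) and *MFSD2A* (0.133).

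**Figure D4:**
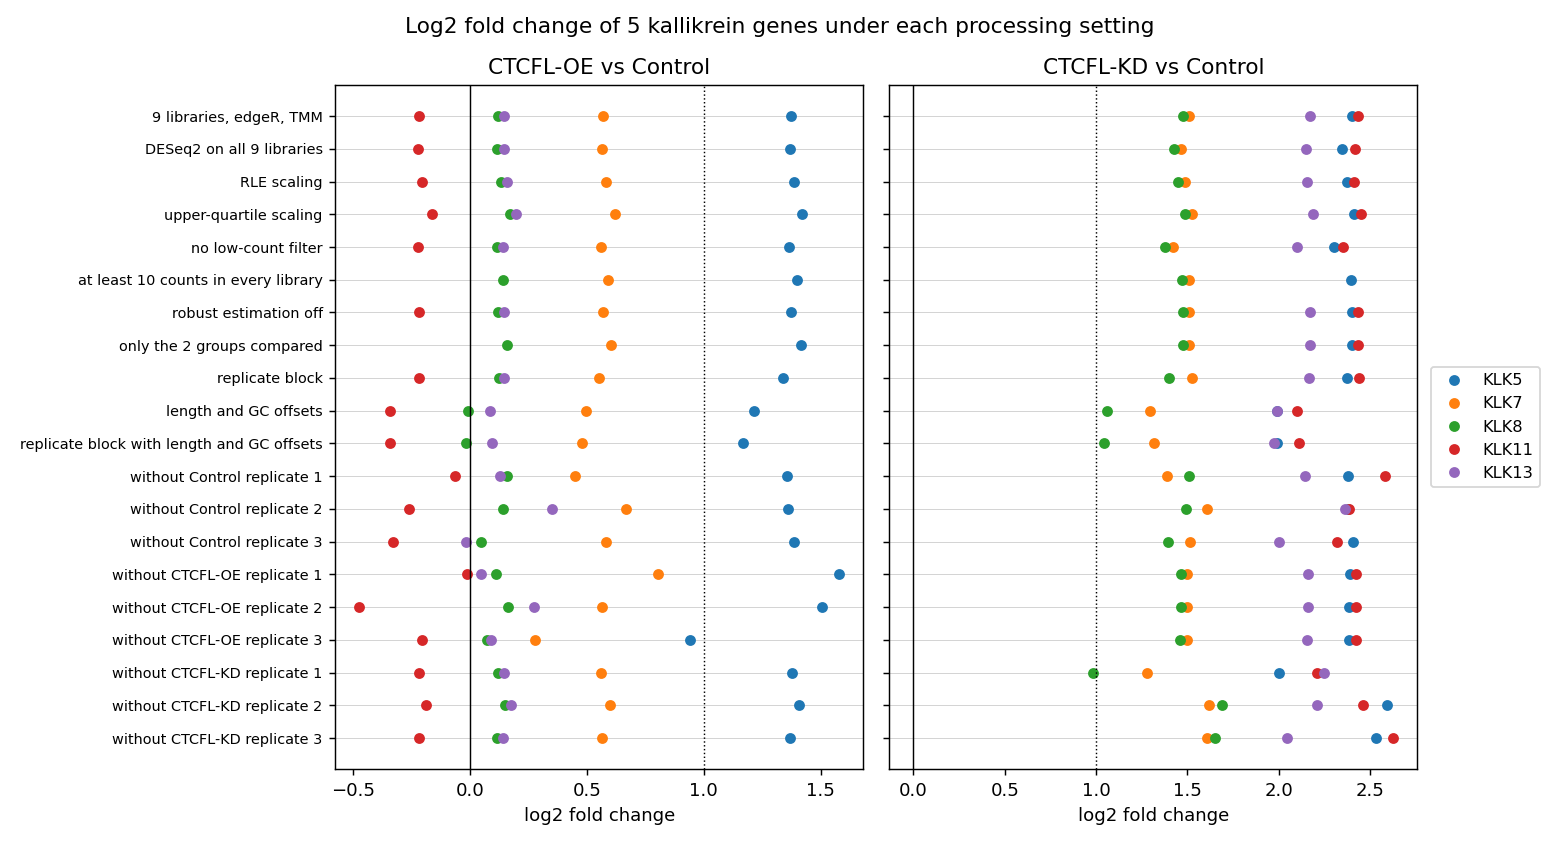
Log2 fold change (horizontal axes) of *KLK5*, *KLK7*, *KLK8*, *KLK11* and *KLK13* in the fit used here (top row) and under each of 19 other processing settings, in CTCFL-OE (left) and CTCFL-KD (right), each compared with Control. The dotted line marks the threshold of 1. In CTCFL-KD *KLK8* at 0.99 without replicate 1 is the 1 point left of the line, and in CTCFL-OE *KLK5* drops left of it, to 0.94, without replicate 3 of CTCFL-OE. Points are missing where a gene did not pass the filter of that setting.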

How the data were processed

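RNA-seq of 9 OVCAR3 libraries (Control, CTCFL-OE and CTCFL-KD, 3 of each) was used. The deposited values are raw counts of reads per gene. Per the paper's methods, the authors made stranded mRNA libraries, trimmed with Trimmomatic, aligned to GRCh38 with STAR and counted with featureCounts, and the submitters' processing notes also name kallisto. Their strand setting, annotation release and counting of reads on several genes are not given in the sources used here. The library files and the matrix held equal counts.

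The 60660 identifiers were annotated with GENCODE 44, which named 60419 of them. Genes were kept by filterByExpr (17794 genes), scaled by TMM and fitted in edgeR 4.0.16 (R 4.3.3) with glmQLFit, robust, on all 9 libraries with the group as the only factor. Comparisons used edgeR's quasi-likelihood F test, with p-values adjusted over all genes tested by Benjamini-Hochberg. A call needed a log2 fold change beyond 1 and an adjusted p under 0.1 (CTCFL-OE compared with Control) or 0.05 (the other 2), the thresholds of the study for its comparisons with Control. Intervals are 95% intervals of the fit and, like the limit of 3 counts, do not cover handling of the cells. RPKM divides CPM by the merged exon length.

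The text names the 10 members, *CTCFL*, up to 3 called genes with the smallest adjusted p from each other list, the 3 genes most like *KLK6*, and others where a small count needs a name. Some list genes are not reported here. The members and lists were chosen with earlier results of these data known. Alternatives were DESeq2 1.42.0, RLE and upper-quartile scaling, other filters, robust estimation off, the 2 groups alone, the replicate block, offsets for length and GC content, and each library left out. The procedure was tested on simulated counts. Motifs and 75-base words were searched with Python 3.11.15 in RefSeq promoters and GENCODE transcripts. Over 9888 genes, deviations from the group means of same-numbered libraries correlated by 0.428, 0.222 and 0.315 for Control and CTCFL-KD (0.178, 0.123 and 0.191 with length and GC trends removed). All lay above 0.1, but CTCFL-KD came from an earlier experiment, so they were not taken to show that same-numbered libraries were pairs. The correlations were -0.0434, 0.254 and -0.0408 for Control and CTCFL-OE, which were not read as pairs either.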

Additional observations from a re-analysis of the deposited data

How the results depend on the processing

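Over 24 log2 fold changes of members and 19 other settings, 412 of 448 values kept the direction and the call, 22 lost a call, 4 gained one and 10 changed sign. With the replicate block, a term for the replicate number, the *KLK5* call in CTCFL-OE was lost, which left 0 members called. Its log2 fold change was then 1.34 and its BH-adjusted p in edgeR 0.102 (range over all settings 3.75e-06 to 0.311, edgeR or DESeq2). Replicate numbers did not pair the Control and CTCFL-OE libraries, and the block changed no other call of a member. Leaving out 1 library gave 0 to 1 members called in CTCFL-OE, 4 to 5 in CTCFL-KD (4 without replicate 1 of CTCFL-KD) and 2 to 6 between CTCFL-KD and CTCFL-OE (2 without replicate 1 of CTCFL-KD). With at least 10 counts in every library, 6 members were tested, without *KLK11* and *KLK13*, and 3 were called in CTCFL-KD and 1 between CTCFL-KD and CTCFL-OE. The signs that changed belonged to small values that no setting called. In CTCFL-OE, with the block and the length and GC offsets, *KLK6* was at -0.0197, *KLK10* at -0.0235 and *KLK8* at -0.0155, and *KLK8* was at -0.0074 with the offsets alone. Over the libraries left out, values in CTCFL-OE ranged from -0.21 to 0.41 for *KLK6*, from -0.35 to 0.48 for *KLK10* and from -0.0155 to 0.35 for *KLK13*. *KLK6* ranged from -0.56 to 0.0493 in CTCFL-KD, with 0.02 without its replicate 2, and from -0.72 to 0.0637 between CTCFL-KD and CTCFL-OE. The causes were not tested. At 3 libraries per group and 5 to 21 counts, the 95% intervals of *KLK11*, *KLK13* and *KLK14* in CTCFL-OE and of *KLK14* in CTCFL-KD reached from below 0 to between 0.73 and 1.42 on the log2 scale.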
